A study of Chlorocebus aethiops with 12 samples.

Results

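The MAP kinase phosphatases are dual-specificity phosphatases, here the 10 genes DUSP1 (NM_004417), DUSP2 (NM_004418), DUSP4 (NM_001394), DUSP5 (NM_004419), DUSP6 (NM_001946), DUSP7 (NM_001947), DUSP8 (NM_004420), DUSP9 (NM_001395), DUSP10 (NM_007207) and DUSP16 (NM_030640). They were found on the arrays by their RefSeq accession, with every probe of each accession, which gave 18 of the 41000 probes and 10 of the 32379 accessions. All 18 probes passed the filter on dim signals, against 31232 of all probes, and all 10 genes were tested among 24587 accessions.

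Total RNA came from COS-1, a line with fibroblast-like morphology from African green monkey kidney, and was hybridised to 12 one-colour arrays of a human design. The 4 groups of 3 biological replicates were S211A+MDFIC cells under dexamethasone (Dex), S211A+MDFIC cells under vehicle, S211A cells under Dex and S211A cells under vehicle. S211A is a form of the glucocorticoid receptor (GR) that cannot be phosphorylated at that serine, and every group received it, so no group lacked the mutant receptor. The sample titles name neither the unmutated receptor nor an empty vector. MDFIC was transfected beside S211A in the first pair of groups. Dex, a synthetic glucocorticoid, was given at 100 nM for 6 h, after a change to medium with charcoal-stripped serum. The series asks whether the effect of MDFIC on GR-regulated transcription depends on phosphorylation of this site.

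MAP kinases (ERK, JNK and p38) are switched on by phosphorylation of a threonine and a tyrosine in their activation loop, and MAP kinase phosphatases switch them off by removing both phosphates. Several of the phosphatase genes are themselves transcribed in response to MAP kinase signalling and so act as negative feedback. DUSP1 is in addition a well-known glucocorticoid-induced gene, one of the routes by which glucocorticoids restrain p38 and JNK signalling.

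Levels are given as log2 of the spot's processed signal relative to the 75th percentile of its array, so that 0 is the signal below which 75% of probes lie. A level belongs to its own probe and is not comparable between genes, since the probes are human and the RNA is monkey. The arrays sat on 3 slides. S211A Dex was split between slide 1 (replicate 1) and slide 2 (replicates 2 and 3), and S211A+MDFIC vehicle between slide 2 (replicates 1 and 2) and slide 3 (replicate 3). S211A+MDFIC Dex lay wholly on slide 3 and S211A vehicle wholly on slide 1. Slide 1 was the dimmest, with 67.8% to 71.7% of probes well above background per array. This share was 76.2% to 79.8% for slide 2, and slide 3 had 76.5% to 80.7%. The RNA is that of a whole culture, in which fewer cells of a kind and less RNA per cell cannot be told apart, nor can transfected and untransfected cells. Whether the culture was free of other cell types was not analysed here, since the files pair no gene names with their accessions.

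With Dex, DUSP1 was called higher and DUSP4 and DUSP5 lower in both kinds of cell, and DUSP16 lower in S211A cells. Of these calls, only those of DUSP5 held in every alternative fit described below. At an adjusted p under 0.05, 1 of the 10 genes rose and 2 fell in S211A+MDFIC cells, where 5.9% of all accessions rose and 4.03% fell. In S211A cells 1 gene rose and 3 fell, where 4.35% of all accessions rose and 2.1% fell. The split of all calls depended on the scaling. Of the calls in S211A cells 67.4% were rises, against 48.5% when arrays were centred on their median and 84.0% without scaling. In S211A+MDFIC cells 59.4% were rises, against 81.1% without scaling. The median size of the log2 change was 0.31 over the 10 genes and 0.15 over all accessions in S211A+MDFIC cells, and 0.41 and 0.12 in S211A cells.

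DUSP1, a nuclear phosphatase of p38, JNK and ERK, had 1 probe. In S211A+MDFIC cells its levels were 4.28, 4.39 and 4.13 under Dex, against 4.002, 3.999 and 3.86 under vehicle. In S211A cells they were 4.51, 4.44 and 4.48 under Dex, against 3.88, 4.04 and 3.80 under vehicle. On these scaled levels every Dex array lay above every vehicle array of its own cells, and the S211A+MDFIC Dex arrays lay below all 3 S211A Dex arrays. On the processed signals before scaling, the Dex and vehicle arrays overlapped in S211A+MDFIC cells, at 18562, 18857 and 13322 under Dex against 14922, 13047 and 13452 under vehicle. In S211A cells these signals did not overlap, and under Dex they were 17744, 17523 and 17985. Before scaling, the S211A+MDFIC Dex arrays thus lay on both sides of the S211A Dex arrays. The mean levels were 4.27 ± 0.13 under Dex and 3.95 ± 0.08 under vehicle with MDFIC, and 4.48 ± 0.04 and 3.91 ± 0.13 without it (SD, n = 3 each). DUSP1 rose 1.24-fold with Dex in S211A+MDFIC cells (log2 0.31, SE 0.08, 95% interval 0.13 to 0.50, limma adjusted p = 0.0443). It rose 1.48-fold in S211A cells (log2 0.57, SE 0.08, 0.38 to 0.75, limma adjusted p = 0.00282). These changes exceeded those of 84.9% and 93.7% of accessions.

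The rise of DUSP1 in S211A+MDFIC cells lay close to the threshold. It no longer passed in 9 of the 12 fits that left out 1 array, with log2 changes of 0.25 to 0.33 and limma adjusted p of 0.0552 to 0.128. These were the fits without any one of the 3 S211A+MDFIC vehicle arrays, without S211A+MDFIC Dex replicate 1 or 2, without S211A vehicle replicate 1, and without any one of the 3 S211A Dex arrays. The rise in S211A cells passed in all 12. Without scaling between arrays the rise did not pass in either kind of cell (limma adjusted p = 0.437 with MDFIC and 0.119 without). Arrays of 1 slide gave a Dex change of log2 0.40 in S211A+MDFIC cells (slide 3, 3 Dex and 1 vehicle array) and 0.60 in S211A cells (slide 1, 1 Dex and 3 vehicle arrays). With slide as a block in the fit, the same 2 estimates had limma adjusted p = 0.179 and 0.0472.

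**Figure D1:**
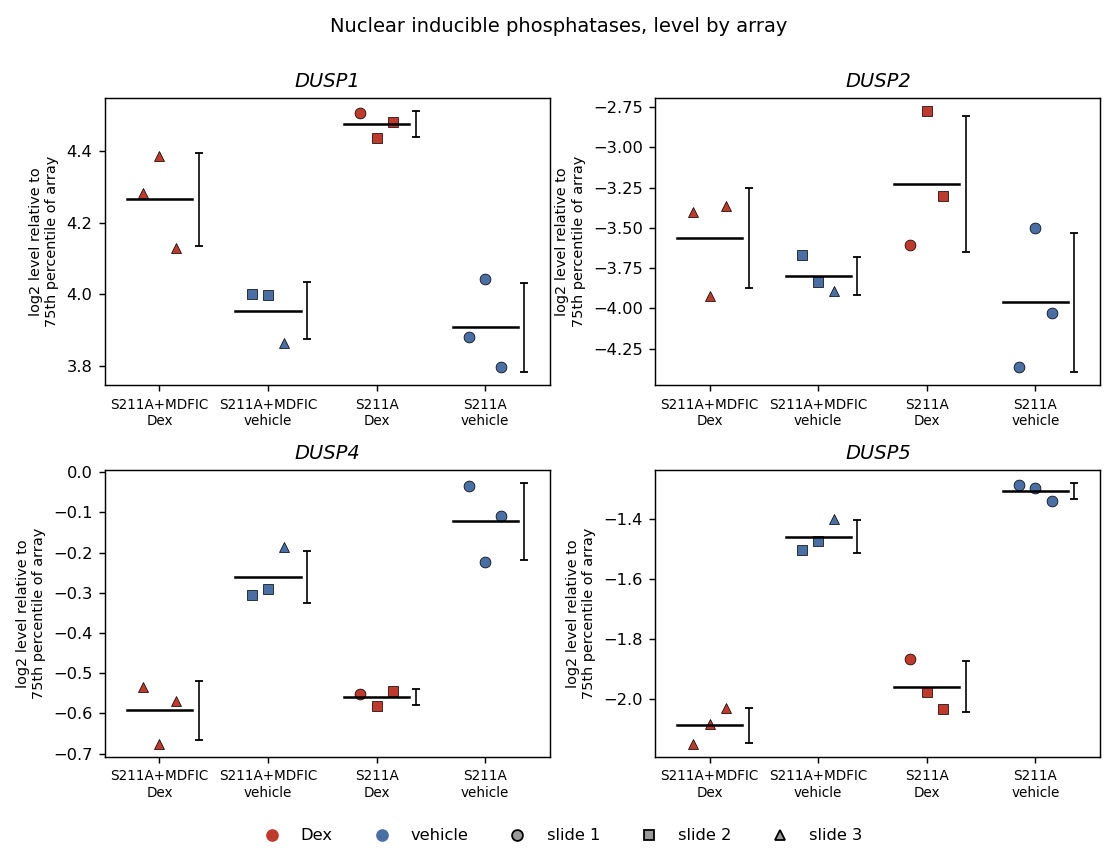
Levels of the nuclear inducible phosphatases DUSP1, DUSP2, DUSP4 and DUSP5 on each of the 12 arrays, as log2 signal relative to the array's 75th percentile, with points for arrays (shape by slide), a horizontal bar for the mean of 3 and a whisker for 1 SD either side. DUSP5 was below -1.8 on all 6 Dex arrays and above -1.6 on all 6 vehicle arrays, while DUSP2 overlapped between the groups.

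DUSP5, a nuclear phosphatase selective for ERK, had the steepest fall of the 10 genes among those that passed the test. Its levels in S211A+MDFIC cells were -2.15, -2.08 and -2.03 under Dex, against -1.51, -1.47 and -1.40 under vehicle. S211A cells read -1.87, -1.98 and -2.04 under Dex, against -1.29, -1.30 and -1.34 under vehicle. The Dex and vehicle arrays stood clearly apart in both, by more than the range within any group. DUSP5 fell to 0.647-fold with Dex in S211A+MDFIC cells (log2 -0.63, SE 0.06, -0.76 to -0.50, limma adjusted p = 0.000139) and to 0.637-fold in S211A cells (log2 -0.65, SE 0.06, -0.78 to -0.52, limma adjusted p = 0.00012). These falls were steeper than those of 98.6% and 99.0% of accessions. Within a slide they were -0.69 on slide 3 and -0.56 on slide 1, and with slide as a block both passed the test (limma adjusted p = 0.00332 and 0.00725).

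DUSP4, a nuclear phosphatase of ERK and JNK, moved in the same direction as DUSP5. With MDFIC its levels were -0.53, -0.68 and -0.57 under Dex, against -0.31, -0.29 and -0.19 under vehicle. In cells with S211A alone the levels were -0.55, -0.58 and -0.54 under Dex, against -0.03, -0.22 and -0.11 under vehicle. No Dex array reached a vehicle array in either. DUSP4 fell to 0.795-fold in S211A+MDFIC cells (log2 -0.33, SE 0.06, limma adjusted p = 0.0106) and to 0.739-fold in S211A cells (log2 -0.44, SE 0.06, limma adjusted p = 0.00273). With slide as a block the values were -0.41 and -0.43, and neither passed (limma adjusted p = 0.0787 and 0.0597), nor did they without scaling between arrays (limma adjusted p = 0.139 and 0.0614).

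DUSP2, a nuclear phosphatase best known from activated immune cells, had 2 probes, and neither passed the test. On the brighter probe its levels in S211A+MDFIC cells were -3.40, -3.92 and -3.36 under Dex, against -3.67, -3.84 and -3.89 under vehicle. S211A cells gave -3.61, -2.78 and -3.30 under Dex, against -4.36, -3.50 and -4.03 under vehicle. The groups overlapped in both kinds of cell, and its spots were only 2.33 to 4.74 times their local background. The Dex change was log2 0.24 (-0.34 to 0.82, limma adjusted p = 0.59996) in S211A+MDFIC cells and 0.73 (0.16 to 1.31, limma adjusted p = 0.148) in S211A cells. The other probe gave -0.08 and 0.81. The S211A value depended on the processing, at 0.26 with normexp background correction (limma adjusted p = 0.458) and 0.35 with slide as a block (limma adjusted p = 0.762).

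DUSP6, a cytoplasmic phosphatase selective for ERK and a feedback inhibitor of growth factor signalling, stood just short of the threshold. In S211A+MDFIC cells its levels were -2.67, -2.79 and -3.05 under Dex, against -2.23, -2.42 and -2.62 under vehicle. In S211A cells they were -2.89, -2.72 and -2.87 under Dex, against -2.40, -2.42 and -2.44 under vehicle. The groups did not overlap in either. The change was log2 -0.41 (SE 0.11, -0.67 to -0.16, limma adjusted p = 0.0506) in S211A+MDFIC cells and -0.40 (SE 0.11, -0.66 to -0.15, limma adjusted p = 0.0745) in S211A cells. It passed in S211A+MDFIC cells without S211A+MDFIC vehicle replicate 3 (log2 -0.51, limma adjusted p = 0.0333) or Dex replicate 1 (log2 -0.50, limma adjusted p = 0.0458). In S211A cells it passed without S211A+MDFIC Dex replicate 3 (limma adjusted p = 0.0437). In the fit with slide as a block the DUSP6 change was -0.22 in S211A+MDFIC cells and -0.47 in S211A cells (limma adjusted p = 0.572 and 0.204). With normexp background correction it was -0.25 in S211A+MDFIC cells (limma adjusted p = 0.0753).

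Groups that did not overlap were common on these arrays. With Dex, 1 phosphatase lay wholly above and 3 wholly below vehicle in S211A+MDFIC cells, against 17.3% and 13.8% of all accessions. In S211A cells these numbers were 1 above and 4 below, the fourth being DUSP16, against 14.8% and 10.9% of all accessions.

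**Figure D2:**
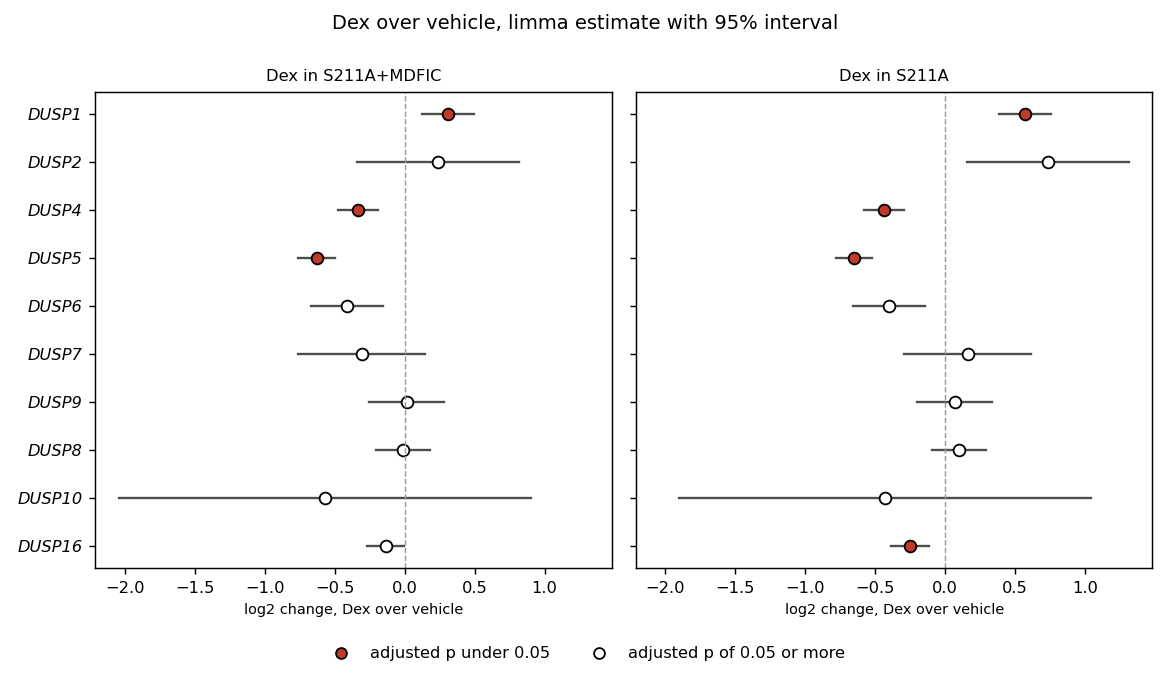
Log2 change with Dex over vehicle for each of the 10 phosphatases, in S211A+MDFIC cells and in S211A cells, as limma estimates with 95% intervals and filled points for an adjusted p under 0.05. DUSP5 lay at -0.63 and -0.65, DUSP4 at -0.33 and -0.44, and DUSP1 at 0.31 and 0.57.

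DUSP7 and DUSP9 are the other phosphatases that prefer ERK. The DUSP7 levels on its brighter probe were -3.49, -3.31 and -3.08 in S211A+MDFIC cells under Dex, against -3.11, -3.30 and -2.55 under vehicle. The S211A arrays read -2.91, -2.91 and -3.36 under Dex, against -3.13, -3.42 and -3.12 under vehicle. All of these groups overlapped. The Dex change was log2 -0.31 (-0.76 to 0.15, limma adjusted p = 0.369) in S211A+MDFIC cells and 0.16 (-0.29 to 0.62, limma adjusted p = 0.722) in S211A cells. The other probe gave 0.12 and -0.04. On the brighter probe slide as a block gave -0.75 and 0.31, and neither passed (limma adjusted p = 0.1702 and 0.639). The -0.75 equalled the change within slide 3, which held 1 S211A+MDFIC vehicle array, the highest of its group at -2.55. DUSP9 lay between -2.35 and -1.88 on all 12 arrays. Its Dex change was log2 0.01 (-0.25 to 0.28) in S211A+MDFIC cells and 0.07 (-0.20 to 0.34) in S211A cells, with limma adjusted p of 0.954 and 0.812.

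DUSP16, DUSP8 and DUSP10 act on JNK and p38 rather than ERK. The DUSP16 levels on its brightest probe were 2.27, 2.19 and 2.24 in S211A+MDFIC cells under Dex, against 2.39, 2.47 and 2.25 under vehicle. In S211A cells they were 2.23, 2.27 and 2.26 under Dex, against 2.45, 2.49 and 2.55 under vehicle. The S211A groups stood apart, while in S211A+MDFIC cells vehicle replicate 3 lay among the Dex arrays. In S211A+MDFIC cells the change was log2 -0.14 (SE 0.06, -0.27 to -0.00083, limma adjusted p = 0.187). The other 3 probes read -0.35, -0.998 and -0.16 there, the mean of the 4 probes gave -0.41 (limma adjusted p = 0.0506), and with slide as a block the brightest probe gave -0.02. DUSP16 fell to 0.841-fold with Dex in S211A cells (log2 -0.25, SE 0.06, -0.38 to -0.11, limma adjusted p = 0.0394).

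The fall of DUSP16 in S211A cells passed on 1 of its 4 probes and was lost in most fits that left out an array. The other 3 probes gave log2 changes of -0.17, -0.02 and -0.18 in S211A cells, and the mean of the 4 probes gave -0.16 (limma adjusted p = 0.512). It no longer passed in 9 of the 12 fits without 1 array, with limma adjusted p of 0.0534 to 0.126. These were the fits without any one of the 6 S211A arrays, and those without the first S211A+MDFIC vehicle array or the S211A+MDFIC Dex arrays 1 and 3, each left out singly. The adjusted p was 0.127 with slide as a block. The difference between the DUSP16 responses with and without MDFIC was log2 0.11 (-0.08 to 0.30, limma adjusted p = 0.670). With slide as a block it was 0.26 (0.02 to 0.50, limma adjusted p = 0.674), an interval that lay above 0. Neither difference passed, so that the fall is not shown to differ between the cells.

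The DUSP8 levels on its brightest probe were 0.71, 0.90 and 0.93 in S211A+MDFIC cells under Dex, against 0.89, 0.89 and 0.81 under vehicle. S211A cells read 1.25, 1.01 and 0.996 under Dex, against 0.95, 0.93 and 1.08 under vehicle. These groups overlapped, and the Dex change was log2 -0.01 (-0.21 to 0.18, limma adjusted p = 0.936) in S211A+MDFIC cells and 0.10 (-0.09 to 0.29, limma adjusted p = 0.590) in S211A cells. DUSP10 was the dimmest of the set against its surroundings, and had 2 probes. The brighter one gave spots 1.59 to 4.96 times their local background and was well above background on 10 of 12 arrays, all but S211A Dex replicate 1 and S211A vehicle replicate 2. The other, A_23_P51856, was well above background on 11 of 12, all but S211A Dex replicate 1. On the brighter probe the DUSP10 levels ran from -5.47 to -5.16 in S211A+MDFIC cells under Dex, against -5.44 to -3.58 under vehicle. In S211A cells they ran from -5.87 to -3.80 under Dex, against -5.61 to -3.69 under vehicle. The intervals of its Dex change were correspondingly wide, at -2.04 to 0.90 in S211A+MDFIC cells and -1.90 to 1.05 in S211A cells. The changes with slide as a block were -1.74 and -1.33, and neither passed (limma adjusted p = 0.327 and 0.504). They rest on 1 vehicle array on slide 3 (-3.58) and 1 Dex array on slide 1 (-5.87), the highest and the lowest of their groups.

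**Figure D3:**
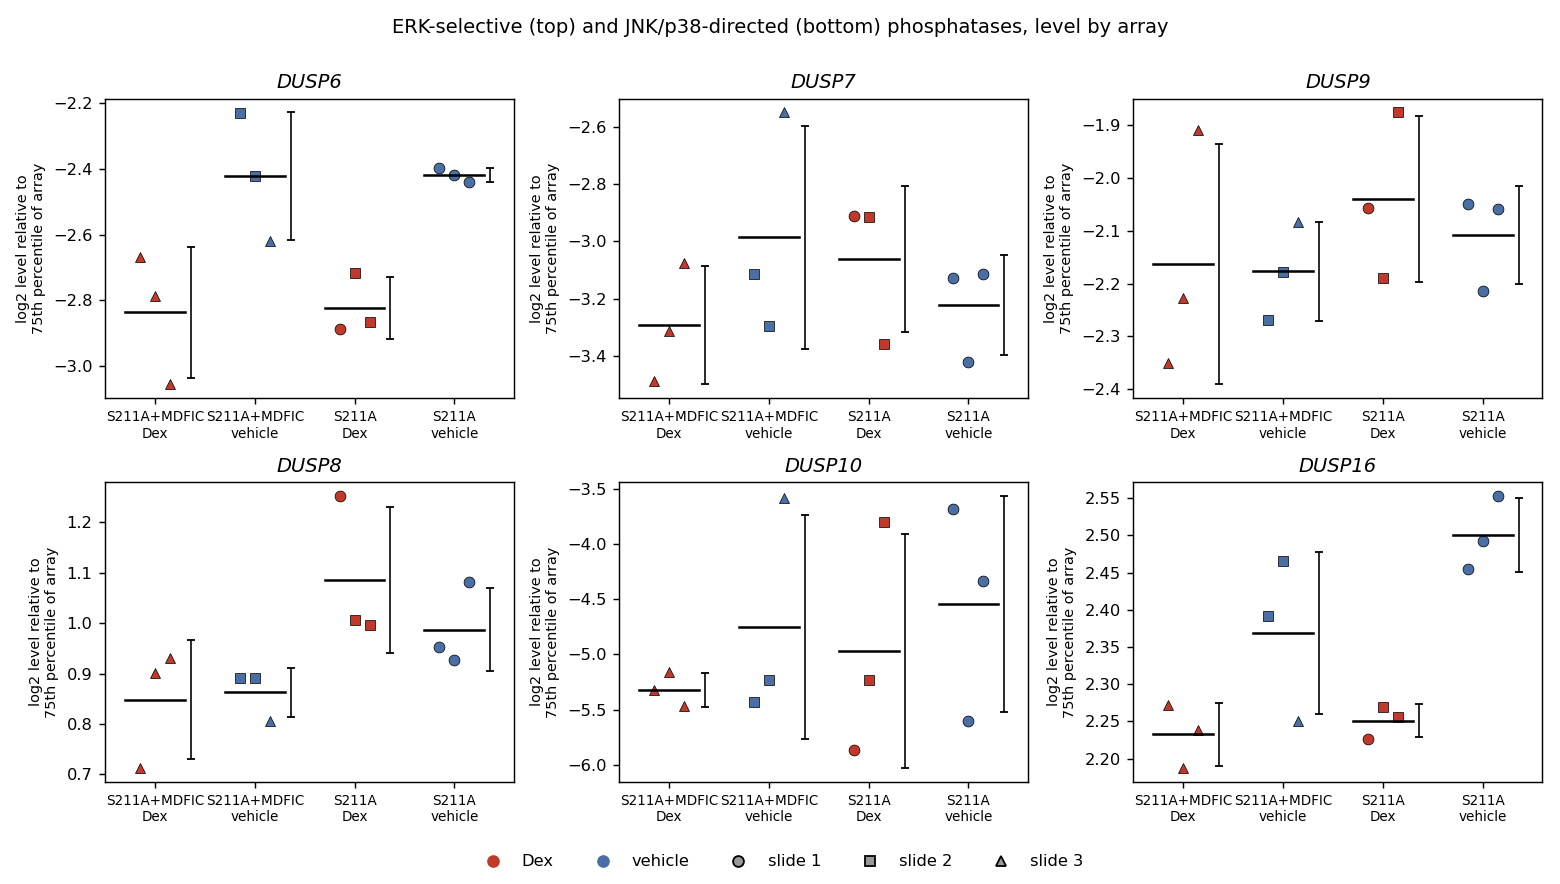
Levels of DUSP6, DUSP7, DUSP9, DUSP8, DUSP10 and DUSP16 on each of the 12 arrays, as log2 signal relative to the array's 75th percentile, with points for arrays (shape by slide), a horizontal bar for the mean of 3 and a whisker for 1 SD either side. DUSP10 spread from -5.87 to -3.58, while DUSP16 spread from 2.19 to 2.55.

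Between probes of the same gene, 6 of the 8 additional probes had the sign of the gene's brightest probe for Dex in S211A+MDFIC cells, and 7 of 8 in S211A cells. None of these 8 passed the test, while 3 and 4 of the brightest probes did. On the DUSP16 probe A_24_P73264 the S211A+MDFIC vehicle arrays read -1.84, -3.18 and -3.79, with replicate 1 far above the others, and the Dex change was log2 -0.998. On the DUSP8 probe A_32_P98298, replicate 2 was the highest array in 3 of the 4 groups, and the exception was S211A+MDFIC Dex.

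**Figure D4:**
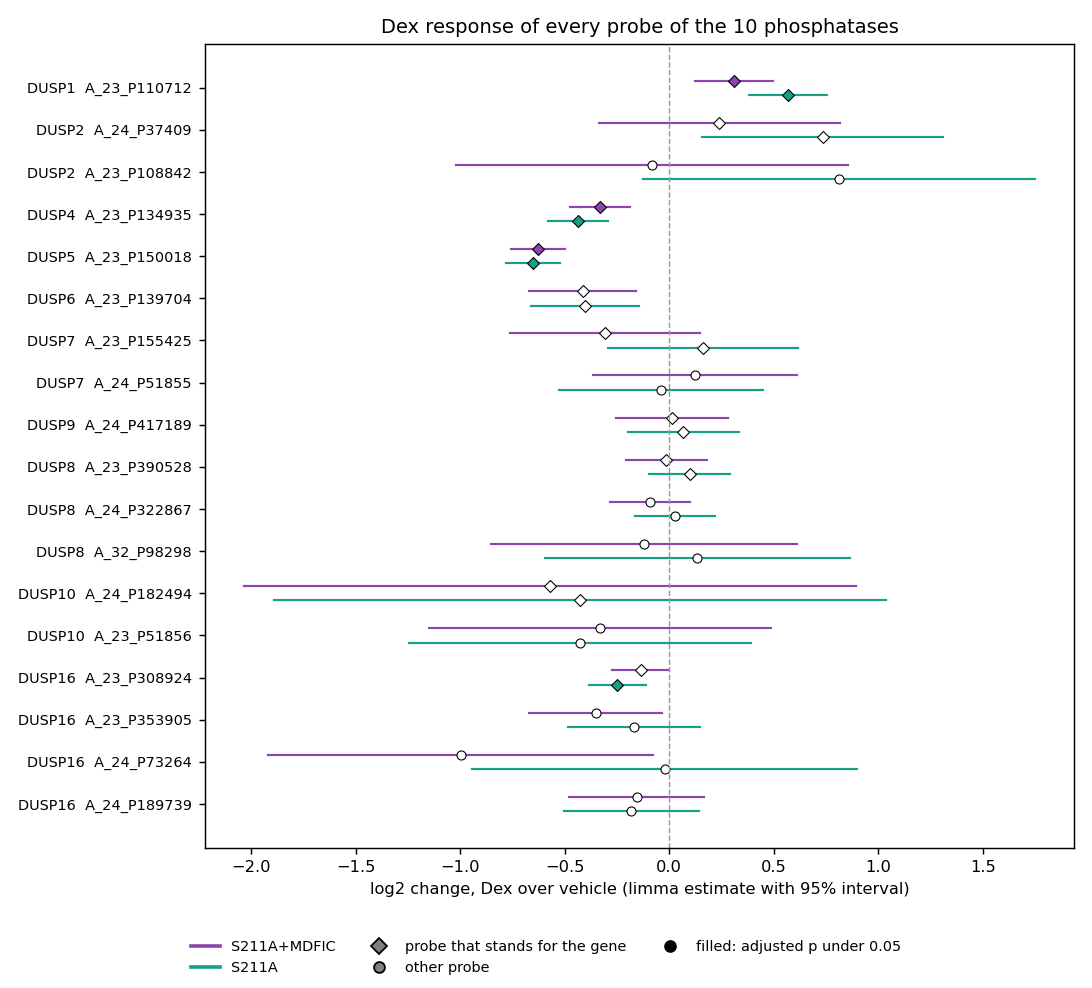
Log2 change with Dex over vehicle for each of the 18 probes of the 10 phosphatases, as limma estimates with 95% intervals, in S211A+MDFIC cells (upper of each pair) and S211A cells (lower). Diamonds mark the brightest probe, which stands for the gene, and circles the 8 other probes, of which 0 are filled for an adjusted p under 0.05.

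The next question was whether MDFIC altered these genes under the mutant receptor. No phosphatase differed between S211A+MDFIC and S211A cells at an adjusted p under 0.05 in limma, either under Dex, where 0.435% of all accessions were called, or under vehicle, where 0.988% were. At an unadjusted p under 0.05, 2 phosphatases passed under Dex and 1 under vehicle, against 13.6% and 16.3% of all accessions. The 2 under Dex were DUSP1, at log2 -0.21 (-0.40 to -0.02, limma adjusted p = 0.317), and DUSP8, at -0.24 (-0.43 to -0.04, limma adjusted p = 0.288). The 1 under vehicle was DUSP5, at log2 -0.15 (-0.28 to -0.02, limma adjusted p = 0.234).

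Under Dex all 10 phosphatases had a lower mean in S211A+MDFIC than in S211A cells, while 8 of 10 did with slide as a block and 6 of 10 without scaling between arrays. Their median difference was log2 -0.17, against -0.0017 over all accessions, of which 50.4% were lower. Under vehicle 7 of 10 were lower in S211A+MDFIC cells, with a median of -0.10, where 52.2% of all accessions were lower, and without scaling 4 of 10 were. These counts rest on the brightest probes. With the mean of each gene's probes 9 of 10 were lower under Dex, and 5 of 10 under vehicle. Of the 8 other probes 6 were lower under Dex and 2 under vehicle, and the second DUSP10 probe was higher in both, by log2 0.42 and 0.32. Groups without overlap, S211A+MDFIC lower, were seen for DUSP1 and DUSP8 under Dex and for DUSP5 and DUSP8 under vehicle, against 9.16% and 15.8% of all accessions. On signals before scaling, 0 of the 10 stood apart in these comparisons. No slide held both groups of either comparison, so that slide and MDFIC cannot be told apart within slides. With slide as a block, linked through the groups that span 2 slides, the differences under Dex were -0.06 for DUSP1 and -0.07 for DUSP8. Those of DUSP7 and DUSP10 grew, from -0.23 to -0.81 (-1.49 to -0.14) and from -0.35 to -2.55 (-4.77 to -0.33). Both lean on the 1 S211A+MDFIC vehicle array on slide 3, which lay 0.66 and 1.75 above the mean of its group on slide 2. DUSP6 and DUSP16 were higher with MDFIC in that fit, at 0.25 and 0.15. None of the 10 passed in it (limma adjusted p = 0.997 for each).

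For the response itself, the Dex change of DUSP1 was log2 0.31 with MDFIC and 0.57 without. The difference was -0.26 (SE 0.12, -0.52 to 0.0050, unadjusted p = 0.0537, limma adjusted p = 0.512), which did not pass. With slide as a block it was -0.20. For DUSP5 the difference between the Dex responses was 0.02 (-0.16 to 0.21), for DUSP4 0.11 (-0.09 to 0.31) and for DUSP6 -0.01 (-0.37 to 0.35). These 3 differences, with slide as a block, were -0.13 (-0.37 to 0.11), 0.02 (-0.28 to 0.33) and 0.25 (-0.24 to 0.74). The same fit gave -1.06 for DUSP7 (-1.78 to -0.33, limma adjusted p = 0.493) and 0.26 for DUSP16 (0.02 to 0.50, limma adjusted p = 0.674). Neither passed, though both intervals lay off 0, and those of the other members included 0. In that fit the Dex changes rest on 1 vehicle array on slide 3 and 1 Dex array on slide 1. For DUSP7 this vehicle array lay 0.66 above the mean of its group on slide 2. The other DUSP7 probe gave a difference of 0.16 (-0.53 to 0.85) in the fit that had no slide term. Without a term for slide, none of the 10 phosphatases passed, adjusted p running from 0.512 to 0.985 in limma. There, 0 of 10 passed at an unadjusted p under 0.05. Over all accessions 0.273% were called and 9.84% passed at an unadjusted p under 0.05. The intervals were wide for DUSP2 (-1.31 to 0.32), DUSP7 (-1.11 to 0.18) and DUSP10 (-2.22 to 1.94).

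**Figure D5:**
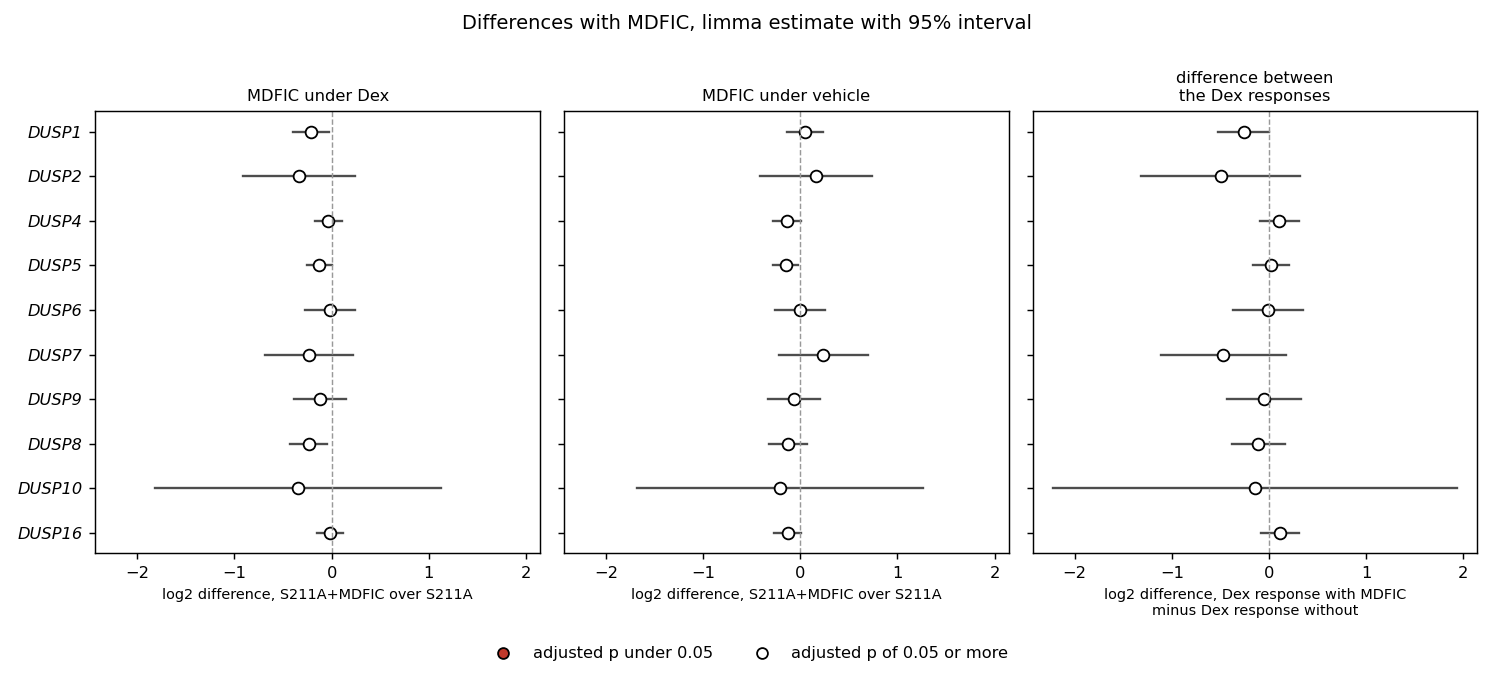
Log2 difference of S211A+MDFIC over S211A cells under Dex and under vehicle, and the Dex response with MDFIC minus that without, for the 10 phosphatases, as limma estimates with 95% intervals. No point is filled, since 0 of 10 passed at an adjusted p under 0.05 in each panel, and DUSP10 has the widest interval.

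Among 20901 other accessions well above background on all 12 arrays, the 2 whose levels followed DUSP1 most closely were NM_182757 (Pearson r = 0.978 over 12 arrays) and NM_000112 (r = 0.975). The 12 points share the Dex and vehicle groups, so these values are a description of likeness on these arrays. Their Dex change was log2 0.27 and 0.28 in S211A+MDFIC cells and 0.45 and 0.49 in S211A cells. Since they were picked for following DUSP1 on these same arrays, their changes resemble its own by selection and are given without a test. The files do not pair these accessions with gene names.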

How the data were processed

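Total RNA of 12 COS-1 cultures was measured on one-colour Agilent arrays, grouped by title. The deposited values are the authors' processed intensity readings on a linear scale, background-subtracted and detrended, per the file headers, which name Feature Extraction 12.0.0.7. The deposited series-wide table held the same values in all 45015 rows. From these, log2 levels were computed relative to each array's 75th percentile. The 945 outlier-flagged spots were set to missing, 1639 control spots were left out, and 0 spots were saturated. A probe was kept when all 3 arrays of any 1 group flagged it well above background, and the brightest probe stood for its accession.

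Groups were compared with limma 3.58.1 (R 4.3.3) on 4 group means over all 12 arrays, two-sided, with Benjamini-Hochberg adjustment over 24587 accessions and no term for slide. Intervals are 95% intervals of the fit, and the number of arrays limits precision. Slide numbers were read from the array description in the labels. The fit was tested on simulated data with independent noise and no slide effect, so that the test says nothing on the layout over slides. The labels call the replicates biological, without saying whether cultures were separate. The p-values set group differences against the spread between these samples, and may be too small if the cultures were not separate. Figures were drawn with matplotlib 3.10.9.

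Named genes were all 10 members and the accessions most like DUSP1 by Pearson correlation. The rule asked for 5, of which only the 2 with the highest r are given here. The files pair none of the 5 with gene names. Pathway and cell marker lists, the transfected genes and probe sequences were not analysed here for lack of names or sequences. The members and lists were chosen with earlier results of these data known. Alternatives covered background correction, scaling, filters, probe summaries, slide and replicate blocks, the groups in the fit, and each array left out.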

Additional observations from a re-analysis of the deposited data

How the results depend on the processing

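Of 1195 values of the phosphatases under alternatives, 1151 kept their side of the threshold, 36 lost their call, 8 gained one and 0 called values changed sign. Most of the 1195 belonged to results not called in the main fit, which had no call to lose. The losses fell on DUSP1, DUSP4 and DUSP16. Apart from fits without 1 array, DUSP1 in S211A+MDFIC cells lost its call in 5 of 12 alternatives, and DUSP16 in S211A cells in 7 of 12. DUSP5 passed in both Dex comparisons under every alternative run. DUSP1 in S211A+MDFIC cells was also lost under median centring (0.241), without the dim-probe filter (0.0722) and with only the compared groups (0.114), all limma adjusted p. DUSP4 there was lost with only the compared groups (0.0585). DUSP16 in S211A cells was lost with normexp (0.0596), without scaling (0.344), without the filter (0.0682) and with only the compared groups (0.0746). DUSP6 passed in S211A+MDFIC cells with quantile normalization (0.0417), the filter over all 12 arrays (0.0362) and slide as a random block (0.0347). In S211A cells it passed with only the compared groups (0.0367). With slide as a fixed block it passed in neither (0.572 and 0.204). The random block had a fitted correlation of -0.067 between arrays of a slide, so that it does not take out a slide effect. Phosphatases called with Dex numbered 3 in S211A+MDFIC and 4 in S211A cells. They numbered 2 and 4 under median centring, 1 and 1 without scaling, 2 and 3 without the filter, 1 and 2 with slide as a fixed block and 1 and 4 with only the compared groups. Without 1 array they numbered 2 to 3 and 3 to 4. In the other 3 comparisons the number was 0 throughout.

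All accessions called numbered 2441 for Dex in S211A+MDFIC, 1587 for Dex in S211A, 107 for MDFIC under Dex, 243 for MDFIC under vehicle and 67 for the difference in Dex response. In that order, without scaling they were 518, 506, 32, 72 and 0, and with slide as a fixed block 580, 671, 12, 73 and 40. With only the compared groups the first 4 were 1232, 832, 9 and 123. With normexp, Dex in S211A gave 970, MDFIC under vehicle 111 and the difference 124. Without the dim-probe filter the MDFIC comparisons gave 63 and 1429 and the difference 0. With slide as a random block the last 3 were 225, 532 and 151. The difference gave 143 with the filter set over all 12 arrays and 36 with the mean of the probes. Without 1 array the ranges were 1158 to 4653, 905 to 1876, 33 to 729, 68 to 428, and 0 to 288. The cause of these shifts was not tested.

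Replicate numbers are shared between groups, but same-numbered arrays deviated together weakly if at all. Their r ran from -0.26 to 0.25 over 18 pairs (median 0.04, 4 over 0.1). Between arrays of other numbers it ran from -0.21 to 0.31 over 36 pairs (median -0.01, 4 over 0.1). With the replicate block, MDFIC under vehicle gave 114 accessions, and the phosphatases called with Dex were 4 in S211A+MDFIC cells, where DUSP6 passed (limma adjusted p = 0.0386), and 3 in S211A cells, where DUSP16 did not (0.0847). Signal over background limits DUSP10, DUSP2 and DUSP7.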
